A study of Cucumis melo with 8 samples.

Results

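The miR164 family of melon (Cucumis melo) is listed under 4 of the 116 miRNA names in the processed table: cme-miR164a, cme-miR164b, cme-miR164c and cme-miR164d. cme-miR164c and cme-miR164d have the same mature sequence and carry identical values, so they were counted once, as miR164c/d, and the family holds 3 of the 71 distinct sequences. The members were taken by name and not by their measured values, though with earlier results of these data known. Small RNA was sequenced from fruit mesocarp, the edible flesh, of ‘Flavor No. 4’, a Hami melon variety, harvested 10, 20, 30 and 40 days after flowering (DAF), when the fruit is young, expanding, premature and mature. Each stage has 1 library in each of 2 batches. The first batch used fruits pooled from different plants and single-end reads from the Illumina GAIIx, and the second batch used a single fruit per stage from the following year and paired-end reads from the NextSeq. Season, sequencer and number of fruits therefore changed together and cannot be told apart. No treatment or mutant was compared, and the table holds only miRNAs, so the tissue could not be checked against marker genes.

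miR164 is a conserved plant miRNA that guides cleavage of mRNAs for NAC transcription factors. In Arabidopsis its targets include the CUP-SHAPED COTYLEDON genes, which set organ boundaries, NAC1, which acts in lateral root formation, and ORE1, which promotes leaf ageing. Fruit ripening also depends on NAC factors in tomato, where NON-RIPENING is one of them. Target mRNAs were not measured in these libraries.

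The mature sequences are shown because the members differ at few bases, on which both the seed of each member and the matching of reads depend. Capitals mark the seed, bases 2 to 8 from the 5′ end.
miR164a: uGGAGAAGcagggcacgugcu
miR164b: uGGAGAGGcagggcacaugcu
miR164c/d: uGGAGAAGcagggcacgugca
All 3 sequences are 21 nt long. With positions counted from 1 at the 5′ end and miR164a as reference, miR164c/d carries U21A, a change of the last base outside the seed. miR164b carries A7G, which lies in the seed, and G17A. miR164a and miR164c/d thus share the seed GGAGAAG, and miR164b has the seed GGAGAGG. No other sequence of the table with the same length lies within 3 mismatches of a member. Reads were matched to known miRNAs with up to 1 mismatch, so an unchanged read of miR164a also lies within the allowed distance of miR164c/d, and the reverse. How reads that match both were assigned is not given in the sources used here.

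The precursor sequences are shown because miR164c/d can come from either of a pair of precursors, which the mature reads cannot separate. Capitals mark the mature sequence, which lies in the 5′ part of all 4.
cme-MIR164a: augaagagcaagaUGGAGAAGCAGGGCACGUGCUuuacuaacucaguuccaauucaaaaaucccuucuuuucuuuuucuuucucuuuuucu
cme-MIR164b: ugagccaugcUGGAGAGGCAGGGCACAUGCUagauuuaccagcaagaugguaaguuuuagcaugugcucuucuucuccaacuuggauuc
cme-MIR164c: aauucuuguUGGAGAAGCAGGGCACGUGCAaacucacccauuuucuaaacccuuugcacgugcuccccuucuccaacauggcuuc
cme-MIR164d: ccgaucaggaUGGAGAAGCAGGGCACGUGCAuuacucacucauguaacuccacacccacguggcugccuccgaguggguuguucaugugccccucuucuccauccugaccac
The precursors are 91, 89, 85 and 112 nt long for cme-MIR164a to cme-MIR164d. RefSeq annotates them as MIR164A to MIR164D, with the same lengths, on separate chromosomes. The predicted folds (RNAfold) differed in strength. cme-MIR164a had a minimum free energy of -20.2 kcal/mol with 13 of the 21 mature bases paired to the downstream arm. The other folds were stronger, at -50.1 kcal/mol with 20 paired bases for cme-MIR164b, -38.7 with 19 for cme-MIR164c and -61.0 with 18 for cme-MIR164d. These folds are predictions from sequence and were not measured.

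miR164c/d was the member that changed most. Its TPM, which is reads of a miRNA scaled to a library total without division by length, was 581, 1133, 7475 and 9840 at 10, 20, 30 and 40DAF in the first batch. In the second batch it was 87.7, 1046, 5843 and 10310 TPM at the same stages. The level was higher at each later stage in both batches, and the 4 libraries of 30 and 40DAF all lay above the 4 libraries of 10 and 20DAF, a separation seen in 12.7% of the 71 sequences. The reads behind these values, recovered from the TPM of a single read, numbered 183, 408, 3072 and 2294 for the first-batch libraries and 53, 1031, 614 and 1391 for those of the second batch. Among the 71 sequences, miR164c/d ranked 11, 9, 3 and 3 by level in first-batch libraries and 19, 8, 4 and 4 in second-batch libraries.

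miR164a stayed within a narrower range. It had 1090, 1002, 1166 and 1240 TPM from 10 to 40DAF in the first batch, from 343, 361, 479 and 289 reads. In the second batch it had 771, 504, 1761 and 1890 TPM, from 466, 497, 185 and 255 reads. The first-batch values all lay within 1.24-fold of each other, whereas in the second batch both libraries of 30 and 40DAF lay above both earlier ones. The ripening libraries did not overlap with the early ones when the batches were put together, since the lowest ripening value, 1166 TPM, lay just above the highest early value, 1090 TPM, so both members were among the 12.7% of sequences without overlap.

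miR164b, the member with the changed seed, was the least abundant. Its values were 44.5, 30.5, 31.6 and 25.7 TPM in the first batch, from 14, 11, 13 and 6 reads. In the second batch they were 18.2, 29.4, 38.1 and 44.5 TPM, from 11, 29, 4 and 6 reads. The order of the stages was nearly opposite in the batches, with 10DAF highest in the first and lowest in the second. A level of 3 reads, taken as the detection floor, corresponds to 3.04 to 28.6 TPM over the libraries. miR164b at 40DAF of the first batch (25.7 TPM, 95% Wilson interval 11.8 to 56.2) and at 30DAF of the second (38.1 TPM, 14.8 to 97.9) rested on few reads, and at this depth a change of miR164b within these intervals was not detectable. Such intervals cover counting error only, because reads were not counted by molecular identifiers and PCR copies of a molecule can each be read.

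**Figure D1:**
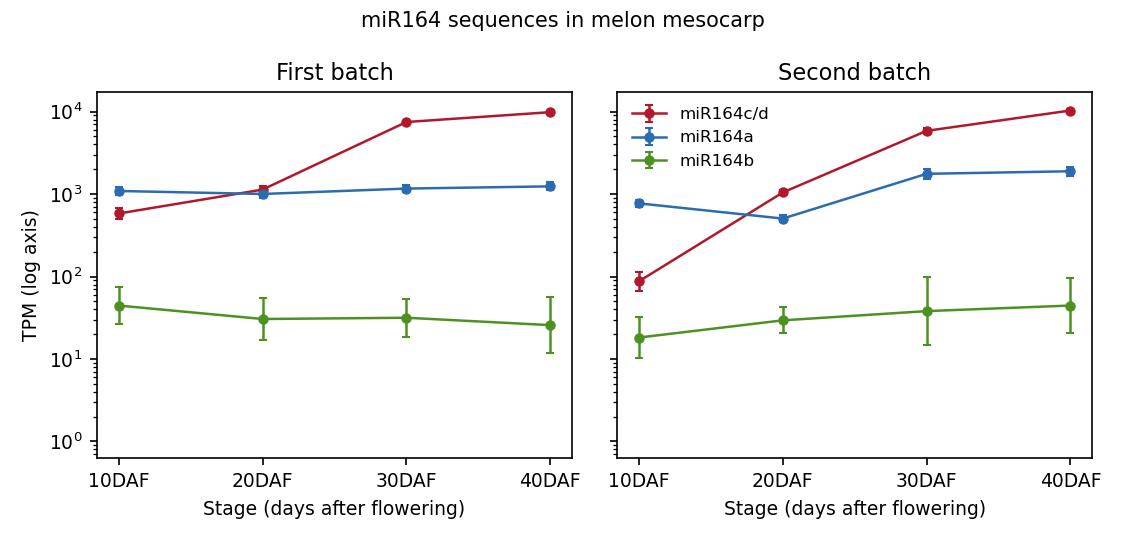
TPM of the 3 miR164 sequences on a log axis against stage, for the first batch (left) and the second batch (right), 1 library per point, with 95% Wilson intervals from the read counts. miR164c/d lies below miR164a at 10DAF and above it from 20DAF onwards in both batches, reaching 9840 and 10310 TPM at 40DAF, while miR164b stays between 18.2 and 44.5 TPM.

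The composition of the family was turned over between 10DAF and 40DAF. miR164a held 63.5% of the family TPM at 10DAF in the first batch (95% Wilson interval 59.4 to 67.5%) and 87.9% in the second (84.9 to 90.4%). miR164c/d then held 33.9% (30.0 to 38.0%) and 10.0% (7.73 to 12.8%). At 20DAF miR164c/d already held the larger share, with 52.3% (48.8 to 55.8%) and 66.2% (63.8 to 68.5%) in the respective batches. The first-batch interval at 20DAF includes equal shares, so an excess over miR164a there was within counting error of 50 percent. By 30DAF the share of miR164c/d was 86.2% and 76.5%, and at 40DAF it was 88.6% (87.3 to 89.8%) and 84.2% (82.4 to 85.9%). miR164a correspondingly held 46.3, 13.4 and 11.2% from 20 to 40DAF of the first-batch family TPM and 31.9, 23.0 and 15.4% of that of the second batch.

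Within the family, miR164b held 2.59 and 2.08% at 10DAF and 0.232 and 0.363% at 40DAF of the respective batches, while its own level showed no common direction. The miR164c/d share was 40.6 ± 24.3% over the early libraries and 83.9 ± 5.25% over the ripening libraries (SD, n = 4 each), and the ranges, 10.0 to 66.2% and 76.5 to 88.6%, did not overlap. The early libraries differed both by stage and within it, with a miR164c/d share of 21.9 ± 16.9% at 10DAF and 59.3 ± 9.84% at 20DAF (SD, n = 2 each). If each name were counted, so that miR164c/d entered the total once as cme-miR164c and once as cme-miR164d, its share would be 50.6% and 18.2% at 10DAF and 94.0% and 91.4% at 40DAF.

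**Figure D2:**
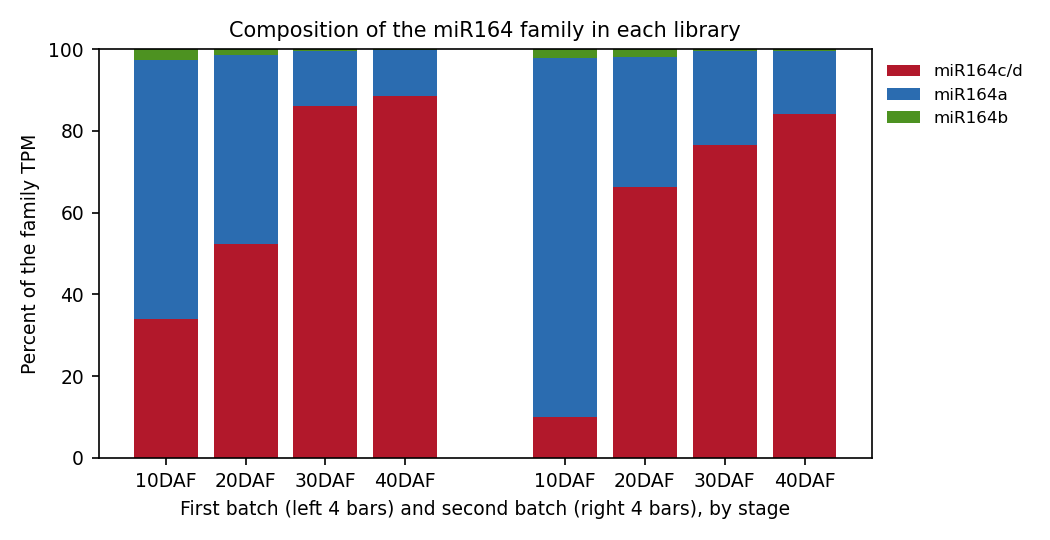
Percent of the family TPM held by each distinct sequence in each of the 8 libraries, with the first batch in the 4 bars at left and the second in the 4 bars at right. miR164c/d grows from 33.9% and 10.0% at 10DAF to 88.6% and 84.2% at 40DAF, and miR164a makes up nearly all of the rest.

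From 10 to 40DAF the family as a whole held 1715, 2166, 8673 and 11105 TPM in first-batch libraries and 877, 1580, 7642 and 12245 TPM in second-batch libraries. The family total was thus 6.47 and 14.0 times as high at 40DAF as at 10DAF in the respective batches, and most of the increase was miR164c/d. The increase of miR164a over the same interval was 1.62 and 10.9% of that of miR164c/d. Most of the TPM of the 71 sequences in every library belonged to the miR159 (with miR319) and miR396 families. Relative to all other families, miR164 made up 16.8, 18.8, 50.2 and 62.6% of the TPM over the first-batch stages and 14.1, 22.8, 41.2 and 46.7% over the second-batch stages. miR164c/d alone made up 5.70 and 1.41% of it at 10DAF and 55.5 and 39.3% at 40DAF.

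Whether the members changed towards ripening was tested with limma on log2(TPM + 5), with 30 and 40DAF as ripening and 10 and 20DAF as early stages, and p values were adjusted by the Benjamini-Hochberg method over the 71 sequences. Of the 71 sequences, 3 (4.23%) passed with higher levels in ripening fruit, and 1 of the 3 members, miR164c/d, was among them. miR164c/d rose by a log2 fold change of 4.02 (SE 0.59, 95% interval 2.61 to 5.42, adjusted p = 0.0228), or 16.2-fold on the TPM + 5 scale, the largest log2 fold change among the 71 sequences in this fit. Most single libraries decided this call. Without any one of the 20DAF libraries, the 30DAF libraries or the first-batch 40DAF library the log2 fold change was 3.93 to 4.10 and the adjusted p (limma) 0.0803 to 0.133, and it passed without either 10DAF library or the second-batch 40DAF library. A fit with the batch as a block gave an adjusted p (limma) of 0.0233 for miR164c/d and 5 rather than 3 sequences higher.

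miR164a had a log2 fold change of 0.87 between ripening and early stages (SE 0.38, 95% interval -0.05 to 1.79), which did not pass (limma adjusted p = 0.211) and whose sign depended on 1 of 3 other scalings. It was -0.34 with each library scaled to the TPM outside miR159 and miR396, a reference of which miR164 itself made up 41.2 to 62.6% in ripening libraries. With miR164 also left out of the reference it was 0.39, and with median-ratio scaling 0.48. miR164b had 0.19 (SE 0.53, 95% interval -1.09 to 1.47, limma adjusted p = 0.857), with a sign that turned under all 3 other scalings tried. The miR164c/d value stayed positive and past the threshold under these scalings, at 2.81, 3.54 and 3.63. The scalings lowered the median log2 fold change of all sequences by 0.61, 0.21 and 0.20. Scaling to the TPM outside miR159 and miR396 moved miR164c/d from 4.02 to 2.81 and miR164a from 0.87 to -0.34, further than the median. Scaling divides all sequences of a library by the same number, but the constant added to TPM weakens the shift at low levels. The median covers sequences of low level, so the larger move of miR164c/d and miR164a does not separate a part particular to miR164.

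**Figure D3:**
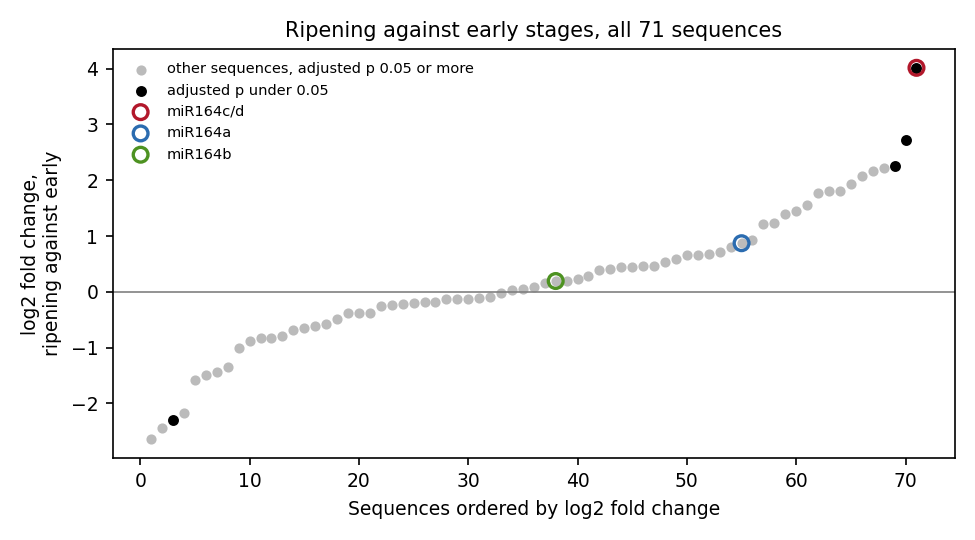
log2 fold change of TPM + 5 between ripening (30 and 40DAF) and early (10 and 20DAF) libraries for the 71 distinct sequences in order of size, with the miR164 members ringed and sequences past an adjusted p of 0.05 in black. miR164c/d stands at 4.02, the top of the order, miR164a at 0.87 and miR164b at 0.19; the miR164a value changes sign under 1 of 3 other scalings and the miR164b value under all 3.

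Taken stage by stage, the step of miR164c/d that both batches shared most closely lay between 20 and 30DAF. There the level became 6.60 times as high in the first batch and 5.58 times as high in the other. Between 10 and 20DAF the corresponding ratios were 1.95 and 11.9, and between 30 and 40DAF 1.32 and 1.76. The batches differed most at 10DAF, where the second-batch library had 0.151 times the miR164c/d level of its first-batch counterpart, against 0.924, 0.782 and 1.05 times at 20, 30 and 40DAF. With 1 library per batch, which of the 10DAF libraries departed cannot be told apart. From 10 to 40DAF the level became 16.9 and 117.6 times as high.

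In the 6 comparisons of stages, miR164c/d passed the adjusted threshold (limma, adjusted over 71 sequences) in 2. Between 40 and 10DAF, where 5.63% of all sequences passed as higher, its log2 fold change was 5.43 (SE 0.83, adjusted p = 0.0294 in limma). Between 30 and 10DAF, where 1.41% passed as higher and miR164c/d was the only one, it was 4.83 (SE 0.83, adjusted p = 0.0447 in limma), and the adjusted p became 0.0557 with the batch as a block. Both calls were lost without any one of the 20, 30 and 40DAF libraries, with adjusted p of 0.0576 to 0.128 in limma for 40 against 10DAF and 0.0966 to 0.298 for 30 against 10DAF.

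No sequence passed the adjusted threshold (0%) as higher between 20 and 10DAF, 30 and 20DAF, 40 and 20DAF or 40 and 30DAF. There 5, 4, 10 and 7 sequences had an unadjusted p under 0.05 in limma in either direction. Voom on recovered reads gave 0, 0, 2 and 0 adjusted calls as higher. Of the alternatives that did not leave out single libraries, 7 gave 1 to 3 such calls for 40 against 20DAF and 3 gave 0. For 30 against 20DAF 1 alternative gave 1 call, and for 40 against 30DAF 1 gave 2. On an unadjusted p under 0.05 combined with a fold over 1.5, as the study set its own threshold, miR164c/d was higher in 5 of the 6 comparisons. These were 20 against 10DAF with a log2 fold change of 2.23, in which 4.23% of all sequences were called higher, 30 against 20DAF with 2.60 (4.23%), and 40 against 20DAF with 3.20 (9.86%). Without either 10DAF library the last 2 kept log2 fold changes of 2.60 and 3.20. For 20 against 10DAF the log2 fold change was 3.56 without the first-batch 10DAF library and 0.90 without the second-batch one. That step thus depended on which 10DAF library was kept. The other 2 of the 5 were the comparisons with 10DAF that also passed the adjusted threshold, where 7.04% of sequences at 30DAF and 14.1% at 40DAF were called higher on the unadjusted rule. Between 40 and 30DAF, where 4.23% were called higher, the log2 fold change of miR164c/d was 0.61 (95% interval -1.38 to 2.59) and did not pass.

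The stages thus ordered miR164c/d as 10, 20, 30 and 40DAF by mean level. The comparison of 40 with 30DAF used a spread estimated over all stages (SE 0.83). With only the libraries of 30 and 40DAF the SE was 0.21, and the comparison again did not pass (limma adjusted p = 0.617). The level at 40DAF was 1.32 and 1.76 times that at 30DAF in the respective batches. miR164a had means of 753, 930, 1463 and 1565 TPM in the order 20, 10, 30 and 40DAF. miR164b had means of 30.0, 31.3, 34.9 and 35.1 TPM in the same order. Neither miR164a nor miR164b passed either threshold in any of the 6 comparisons, and the log2 fold change of miR164a from 10 to 40DAF was 0.74 (95% interval -0.56 to 2.03).

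**Figure D4:**
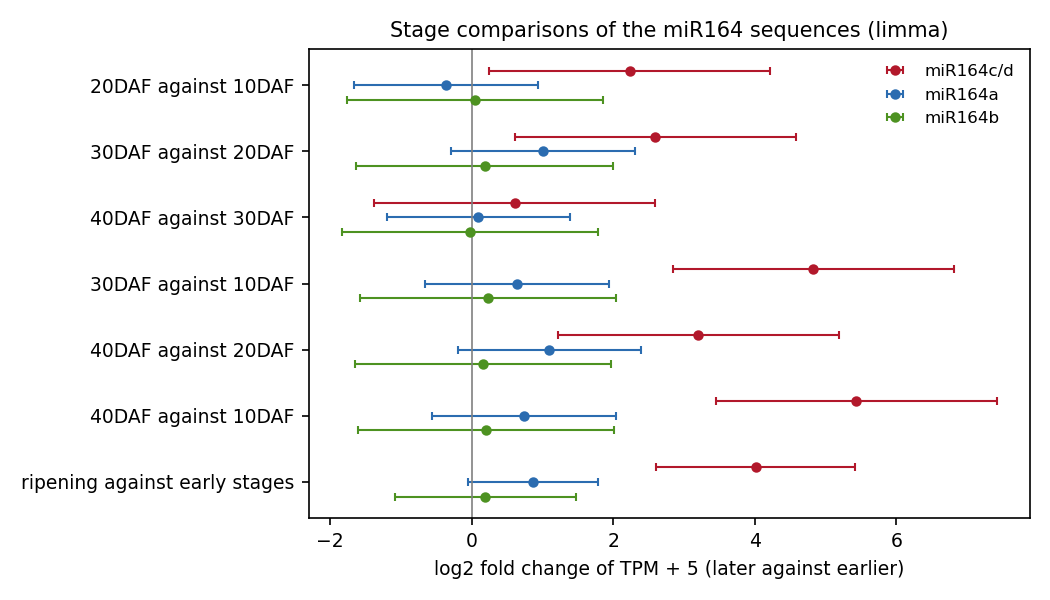
log2 fold changes of TPM + 5 with 95% intervals from limma for the 6 comparisons of stages and for ripening against early stages, later against earlier, for the 3 miR164 sequences. The miR164c/d interval lies above 0 in all but 40 against 30DAF (-1.38 to 2.59), and every interval of miR164a and miR164b includes 0; the ripening value of miR164a changes sign under 1 of 3 other scalings and that of miR164b under all 3.

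The ratio of miR164c/d to miR164a within a library does not depend on the library total used for TPM, so it compares the members free of the abundant families. On the log2 scale it was -0.91, 0.18, 2.68 and 2.99 over the first-batch stages and -3.14, 1.05, 1.73 and 2.45 over the second-batch stages. It increased at every step in both batches and was below 0 only at 10DAF. The mean was -0.70 ± 1.81 over the early and 2.46 ± 0.54 over the ripening libraries (SD, n = 4 each). The difference of 3.17, or 8.97-fold, had a two-sided exact permutation p of 0.0286, the smallest that 4 libraries against 4 can give. The difference was 3.20 within the first batch and 3.13 within the second. Permuting only within the batches, which pair the libraries, leaves 36 arrangements and gave a two-sided exact permutation p of 0.0556, the smallest they allow. The difference did not pass in that form, and none could, so it cannot decide whether the call holds with the batch as a block. Leaving out any 1 library raised the smallest possible exact p to 0.0571, at differences of 2.35 to 3.75.

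A pair of further ratios was added after the values had been seen. The log2 ratio of miR164c/d to miR164b was higher in ripening libraries by 3.81 (two-sided exact permutation p = 0.0286). That of miR164a to miR164b was higher by 0.64 (two-sided exact permutation p = 0.0571), and its groups overlapped. Permuted within the batches, the exact p was 0.0556 for miR164c/d to miR164b and 0.0556 for miR164a to miR164b. Adjusted over the 3 ratios, the unrestricted exact p values were 0.0429 for both ratios with miR164c/d and 0.0571 for the remaining one.

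**Figure D5:**
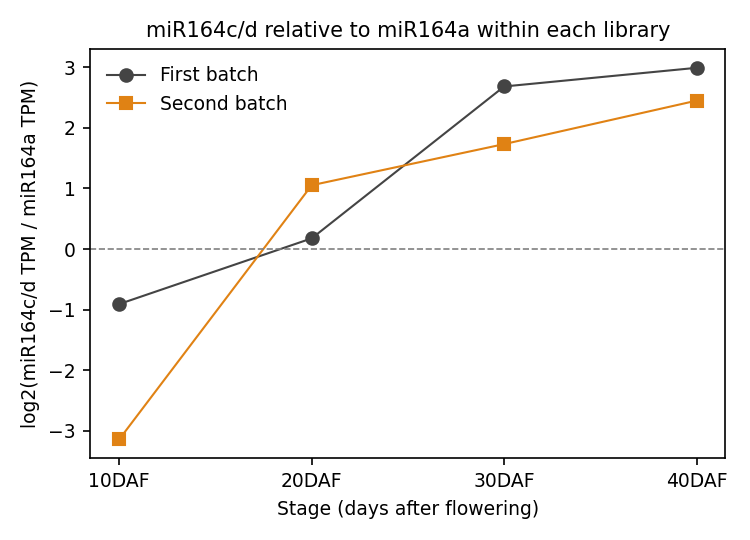
log2 ratio of miR164c/d TPM to miR164a TPM in each library against stage, with circles for the first and squares for the second batch and a dashed line at equal levels. The 4 ripening libraries lie between 1.73 and 2.99, above the 4 early libraries, which lie between -3.14 and 1.05.

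Because miR164a and miR164c/d differ by their last base, the share of reads that could have been assigned to the wrong member bears on both. Within a library, the level of the minority member is an upper bound on majority reads wrongly assigned to it. This bound is given relative to the level assigned to the majority member. It does not cover the reverse assignment or other libraries. miR164a was at its lowest relative to miR164c/d at 40DAF of the first batch, with 12.6% of its level, and miR164c/d at its lowest relative to miR164a at 10DAF of the second batch, with 11.4%. Taking 1% of miR164c/d off miR164a moved the log2 difference in their ratio from 3.17 to 3.24. Neither a larger share nor the reverse, taking miR164a off miR164c/d, was tried, so this does not cover the bounds of 12.6 and 11.4% in those libraries. The number of reads that matched both was not tested, since the table gives only assigned values.

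The batches were compared with the stage as a covariate. Of the 71 sequences 2 (2.82%) differed between the batches on the adjusted p, and no miR164 member was among them. The log2 fold change of the second against the first batch was -0.77 for miR164c/d (95% interval -2.10 to 0.57, limma adjusted p = 0.491), -0.07 for miR164a (-1.09 to 0.95) and -0.05 for miR164b (-1.27 to 1.16). The last 2 were 0.46 and 0.40 after median-ratio scaling. These intervals leave room for differences in either direction.

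Each batch has 1 library per stage, so within a batch the different stages of a kind stood as replicates. On that basis the ripening change of miR164c/d was 3.39 in the first batch (SE 0.99, limma adjusted p = 0.0678). In the second it was 4.64 (SE 0.99, limma adjusted p = 0.0337). Of the 71 sequences, 0 passed the adjusted threshold as higher and 4 as lower in the first batch. In the second batch 3 passed as higher, miR164c/d among them, and 0 as lower. On an unadjusted p under 0.05 in limma with a fold over 1.5, 4 were higher and 14 lower in the first batch. The second batch had 13 higher and 0 lower, so higher ripening values there were not particular to miR164. The change of miR164a was 0.20 (SE 0.41) in the first and 1.54 (SE 0.41) in the second, with limma adjusted p values of 0.867 and 0.0520. Whether these changes differed was tested as an interaction, in which the stages of a kind within a batch stand as replicates. Of the 71 sequences 2 (2.82%) passed on the adjusted p, both with a larger change in the second batch, and no member did. On an unadjusted p under 0.05 in limma with a fold over 1.5, 14 were positive, miR164a among them, and 0 negative. A positive interaction was therefore not particular to miR164. The interaction was 1.24 for miR164c/d (SE 1.40, limma adjusted p = 0.643), 1.34 for miR164a (SE 0.58, limma adjusted p = 0.240) and 1.03 for miR164b (SE 0.91, limma adjusted p = 0.565). With each library scaled on the families other than miR159, miR396 and miR164 these were -0.19, -0.10 and -0.21.

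The sequences with patterns most like miR164c/d were members of the miR156 family, which in Arabidopsis acts on mRNAs of SPL transcription factors and sets the change from the juvenile to the adult phase. Over the 8 libraries and among 51 other sequences with a mean of at least 10 TPM, Pearson's r of log2(TPM + 5) with miR164c/d was 0.93 for miR156a/c/d/i, 0.92 for miR156b and 0.91 for miR156j. miR164a stood only at rank 14, with 0.66. The levels of these miR156 sequences were lower, with means of 36.0 TPM in early and 144 TPM in ripening libraries for miR156a/c/d/i, 133 and 371 TPM for miR156b and 66.1 and 325 TPM for miR156j. For miR164a the closest were miR169t (0.77), miR156a/c/d/i (0.76) and miR169k (0.71). All these values share the same libraries and library totals, so the correlations describe 8 points and carry no test.

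Families of miRNAs known from Arabidopsis to act, like miR164, on transcription factor mRNAs gave a wider comparison. The list held miR156, miR159, miR160, miR166, miR167, miR169, miR171, miR172, miR319 and miR396, with 41 distinct sequences. Of these, 2 passed as higher in ripening libraries on the adjusted p in limma, miR156e and miR156g/h, and 1 as lower, miR159b, whose family acts on mRNAs of GAMYB-like factors. Over all 71 sequences 3 passed as higher and 1 as lower, so the list was near the share of the whole table. By sign 20 of the list were higher and 21 lower, against 38 and 33 of all sequences, and the median log2 fold changes were -0.10 and 0.08. The sign of the list's median depended on sequences of low level. Among those with a mean of at least 10 TPM, 16 of 28 in the list were higher with a median of 0.62, against 32 of 52 and 0.43 over all sequences.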

How the data were processed

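Small RNA of 8 melon mesocarp libraries, 4 stages in each of 2 batches, was compared. The authors trimmed and quality-filtered the reads, selected the small RNA size range, set aside rRNA and tRNA matches, matched the rest to known plant miRNAs with up to 1 mismatch and deposited TPM, which here are reads scaled to a library total without division by length. Bowtie is named in the submitters' processing notes. The TPM of 1 read was found from the low values, 47 to 55 per library, all of which were whole multiples of it within 0.1 read. It gave scaling totals of 105077 to 985263 reads, which are the base of TPM and only part of the reads sequenced. Read numbers, floors and Wilson intervals rest on these few low values and are estimates. Sequences were counted once, and 1 extra empty field was dropped.

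Models of the 4 stages were fitted to log2(TPM + 5) of all 71 sequences in 8 libraries (limma 3.58.1, R 4.3.3, mean-variance trend), and p values were adjusted by the Benjamini-Hochberg method. Libraries of a stage came from different fruits and seasons. The replicate numbers mark the sampling batch. Deviations of same-numbered libraries correlated above 0.1 in 6 of 6 pairs of stages (mean r 0.50, 0.35 to 0.66), so the numbers pair the libraries, and a fit with the batch as a block was made beside each comparison of stages. Exact permutation tests of ratios were two-sided, and a form permuted within batches was added after seeing the data. The alternatives changed the pseudocount to 1 or 20 TPM, dropped sequences with a mean under 10 TPM, or used 3 other scalings, no trend, voom on recovered reads, only the libraries of the stages compared, no stage covariate for the batch contrast, or left out each library in turn. Steps were tested on simulated data. Precursor folds used RNAfold 2.7.2, with precursor sequences from the study's supplementary table, and gene names came from RefSeq. The remaining steps ran in Python 3.11.15 (numpy 2.4.6; pandas 2.3.3; scipy 1.17.1). All 3 members are described, with the 3 sequences of most similar pattern for miR164c/d and miR164a and the called members of the transcription factor list. The members and lists were chosen with earlier results of these data known. Raw reads and target predictions were not analysed here.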

Additional observations from a re-analysis of the deposited data

How the results depend on the processing

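The rise of miR164c/d in ripening libraries was positive under every alternative and past the threshold in limma under all 9 that kept the 8 libraries, with log2 fold changes of 2.81 to 4.09. Leaving out each library in turn gave 3.35 to 4.68, below the threshold in 5 of 8 cases. For 40 against 10DAF these gave 4.10 to 6.76, and the value of 5.43 lost the call with only the libraries of the stages compared (limma adjusted p = 0.177), as did 4.83 for 30 against 10DAF (0.326, and 0.0744 without the trend). With only the libraries of the stages compared, miR164c/d passed in limma for 30 against 20DAF (0.0368) and 40 against 20DAF (0.0282), and the latter also with median-ratio scaling (0.0462). The difference in the log2 ratio of miR164c/d to miR164a ranged from 2.35 to 3.75 without single libraries. It stayed 3.17 when permuted within batches as a replicate block (exact permutation p = 0.0556). An exact p under 0.05 cannot be reached in either form. The count of sequences higher in ripening was 3, and it was 1 with a pseudocount of 1 TPM and under each of the 3 other scalings, 5 with the batch as a replicate block and 0 to 2 without single libraries. For pairs of stages, miR164c/d passed the adjusted threshold in 1 with the replicate block or without the trend, and in 0 to 5 without single libraries. For the members, the replicate block ended no call but that of 30 against 10DAF. The ratios with miR164c/d did not pass in the within-batch form either, where the smallest possible exact permutation p is 0.0556 and no ratio could pass.

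Scaling on families other than miR159 and miR396 turned miR164a to -0.34 in ripening and to -0.69 in 40 against 10DAF, and miR164b to -0.85 in ripening. With miR164 also left out of the scaling, miR164b was -0.22, and the interactions were -0.19 for miR164c/d, -0.10 for miR164a and -0.21 for miR164b. Median-ratio scaling gave miR164b -0.14 in ripening and -0.062 in the interaction, and in the batch contrast 0.46 for miR164a and 0.40 for miR164b. Without single libraries the ripening value of miR164b was -0.080 to 0.47. The cause of these changes was not tested. The scaling totals behind TPM were smallest, at 105077 and 134912 reads, for the 30 and 40DAF libraries of the second batch, where miR164b rested on 4 and 6 recovered reads.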
